A study of Mus musculus with 5 samples.

Results

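The unfolded protein response, the programme by which a cell adjusts the folding capacity of its endoplasmic reticulum (ER), was followed through 10 genes in 5 RNA-seq libraries of male C57BL/6 mice. The genes were chosen by name: the chaperones Hspa5, Hsp90b1 and Calr, the disulfide enzyme Pdia4, the co-chaperone Dnajb9, the degradation components Herpud1 and Sel1l, and the transcription factors Xbp1, Atf4 and Ddit3. They make up 10 of the 78334 genes in the deposited count table, and all of them passed the low-count filter that left 29855 genes for testing. The labels name visceral adipose tissue as the source of every library. Levels are given as CPM, read counts divided by the total of their library and scaled to a common total.

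The curcumin group (2 libraries, called curcumin 1 and curcumin 2) came from diabetic mice given curcumin, a polyphenol of turmeric, by gavage at 50 mg/kg daily for 28 days from 11 weeks of age. The diabetes group (2 libraries, diabetes 1 and diabetes 2) came from mice with the same diabetes treatment and vehicle. Diabetes in both groups followed a dose of 70 mg/kg streptozotocin, which destroys pancreatic beta cells, on day 2 of life and 8 weeks, from the age of 3 weeks, on a diet whose fat supplied 60% of the energy. The control group was 1 library (control 1) of a mouse on standard chow with vehicle. Nothing in the labels ties each library to its own mouse. The p-values therefore measure library-to-library spread, part of which can be technical.

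Proteins that fail to fold in the ER are sensed by the membrane proteins IRE1 (gene Ern1), PERK (gene Eif2ak3) and ATF6. IRE1 splices the Xbp1 mRNA to give an active transcription factor, ATF6 is cut in the Golgi to release another, and PERK slows translation while favouring that of ATF4, which in turn activates Ddit3, the gene of CHOP. Cells that secrete much protein, such as plasma cells, acinar cells and glandular epithelia, hold high levels of ER chaperones without injury, so that the level of such a gene in a whole tissue also follows which cells are in it.

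Promoter sequences are shown for Hspa5, Hsp90b1, Calr and Herpud1, because they hold the ER stress response elements known to bind ATF6 and XBP1 with NF-Y, and for Pdia4, which had the widest span of levels among the 10 genes and holds neither element in this window. The windows run from 250 bases before to 50 bases after the RefSeq start, in the sense of the gene, from RefSeq on GRCm38.p6: Hspa5 at chr2:34771840-34772139 on the plus strand, Hsp90b1 at chr10:86705395-86705694 on the minus strand, Calr at chr8:84846882-84847181 on the minus strand, Herpud1 at chr8:94386179-94386478 on the plus strand and Pdia4 at chr6:47813463-47813762 on the minus strand. Capitals mark the fixed letters of a matched element, written 5′ to 3′.
Hspa5: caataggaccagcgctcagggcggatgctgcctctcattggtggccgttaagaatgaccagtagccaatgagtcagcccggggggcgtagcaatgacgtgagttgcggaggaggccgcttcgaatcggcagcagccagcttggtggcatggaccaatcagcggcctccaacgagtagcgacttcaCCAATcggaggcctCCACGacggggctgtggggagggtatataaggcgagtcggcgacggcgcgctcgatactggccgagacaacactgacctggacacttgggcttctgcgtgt
Hsp90b1: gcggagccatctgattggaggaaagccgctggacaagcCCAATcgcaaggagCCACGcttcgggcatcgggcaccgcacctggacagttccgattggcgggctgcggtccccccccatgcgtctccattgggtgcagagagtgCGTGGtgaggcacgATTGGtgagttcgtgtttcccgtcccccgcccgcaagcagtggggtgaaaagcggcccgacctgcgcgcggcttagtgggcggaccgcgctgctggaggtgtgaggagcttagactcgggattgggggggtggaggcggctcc
Calr: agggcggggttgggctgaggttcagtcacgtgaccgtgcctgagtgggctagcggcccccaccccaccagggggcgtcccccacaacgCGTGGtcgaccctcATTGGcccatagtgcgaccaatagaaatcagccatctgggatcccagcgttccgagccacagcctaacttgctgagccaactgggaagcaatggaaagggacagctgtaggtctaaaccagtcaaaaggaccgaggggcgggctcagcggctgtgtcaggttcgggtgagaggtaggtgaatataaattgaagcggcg
Herpud1: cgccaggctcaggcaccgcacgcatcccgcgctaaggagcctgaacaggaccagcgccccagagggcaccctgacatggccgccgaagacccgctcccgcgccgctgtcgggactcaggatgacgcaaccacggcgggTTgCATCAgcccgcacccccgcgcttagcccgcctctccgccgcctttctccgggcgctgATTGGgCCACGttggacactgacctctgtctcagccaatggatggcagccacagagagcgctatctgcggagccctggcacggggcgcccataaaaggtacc
Pdia4: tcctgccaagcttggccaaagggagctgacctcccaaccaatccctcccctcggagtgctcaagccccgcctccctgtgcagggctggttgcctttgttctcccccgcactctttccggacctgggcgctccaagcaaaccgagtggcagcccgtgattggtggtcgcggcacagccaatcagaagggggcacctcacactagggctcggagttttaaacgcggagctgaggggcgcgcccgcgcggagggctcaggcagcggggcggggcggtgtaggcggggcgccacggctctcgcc

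The element called ERSE, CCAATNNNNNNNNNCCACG on either strand, was found in the windows of Hspa5 (bases -65 to -47 from the start), Hsp90b1 (-212 to -194, and -107 to -89 on the other strand) and Calr (-162 to -144, on the other strand). It was present in 39 of the 32851 promoters of the table (0.119%). The element ERSE-II, ATTGGNCCACG, lay at -52 to -42 in Herpud1 and in 12 promoters in all (0.0365%). Herpud1 also held the element read by ATF4, TGATGNAA, on the other strand at -112 to -105, which 1304 promoters (3.97%) hold. The ATF6 and XBP1 site TGACGTGG was in 222 promoters (0.676%) and in none of the 10 windows. The windows of Pdia4, Dnajb9, Xbp1, Atf4, Ddit3 and Sel1l matched none of the 4 motifs, which says nothing of sites outside them. No matched elements of different kinds overlapped in these windows.

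Library totals were 27814957 and 42422890 counts in the curcumin group, 25451001 and 25378046 in the diabetes group and 27026597 in the control. Genes with a count numbered 46369 and 35983 in curcumin 1 and curcumin 2, 24874 and 31232 in diabetes 1 and diabetes 2, and 30008 in control 1. Curcumin 1 thus had the most genes without the largest total, and its weight in the shares over all genes was not tested. The labelled tissue was checked against marker genes. Adipocyte markers (15 genes) took 0.559% and 0.0264% of the counts in curcumin 1 and curcumin 2, 0.0217% and 4.99% in diabetes 1 and diabetes 2, and 0.0741% in control 1. Markers of the epididymal epithelium (18 genes), a secretory duct of the male tract, took 0.606% and 12.6% in curcumin 1 and curcumin 2, 8.19% in diabetes 1 and 8.46% in control 1, while diabetes 2 held 9 counts of them in all, with 15 of the 18 at 0. In curcumin 1, Crisp1 alone made up 98.5% of the epididymal counts. Smooth muscle markers (10 genes) reached 4.48% in curcumin 1 and 0.0454% to 0.256% in the other 4 libraries. Diabetes 2 thus carried the adipose profile of its label, curcumin 1 was richest in smooth muscle markers, and curcumin 2, diabetes 1 and control 1 were richest in epididymal markers. Sperm markers (9 genes) took 0.0191% to 0.0223% in those 3 libraries and at most 0.000769% in the others. Plasma cell markers, of another secretory type, took 0.0321% and 0.0288% in the curcumin libraries, 0.0274% and 0.109% in the diabetes libraries and 0.0220% in the control. Ighm made up 64.7% of them in curcumin 1 and 92.2% in diabetes 2. Sdc1 alone made up 81.2% in curcumin 2, 96.6% in diabetes 1 and 95.2% in control 1, so those shares rest mostly on 1 gene. Macrophage markers (12 genes) took 0.0631% and 0.0409% in the curcumin libraries, 0.0215% and 0.378% in the diabetes libraries and 0.0272% in the control. Pancreatic acinar markers stayed at or under 0.0104%, mostly Cela1.

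The 4 chaperone and foldase genes were high in the libraries rich in epididymal genes, whatever their group. Hspa5, Hsp90b1, Calr and Pdia4 together took 0.121% and 0.457% of the counts in curcumin 1 and curcumin 2, 0.639% and 0.173% in diabetes 1 and diabetes 2, and 0.434% in control 1. Their sum was thus higher in curcumin 2, diabetes 1 and control 1 than in curcumin 1 and diabetes 2, and each replicated group held 1 library on either side. The part of the epididymal content in these levels was not tested, and in bulk RNA fewer cells of a type and less RNA per cell cannot be told apart.

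**Figure D1:**
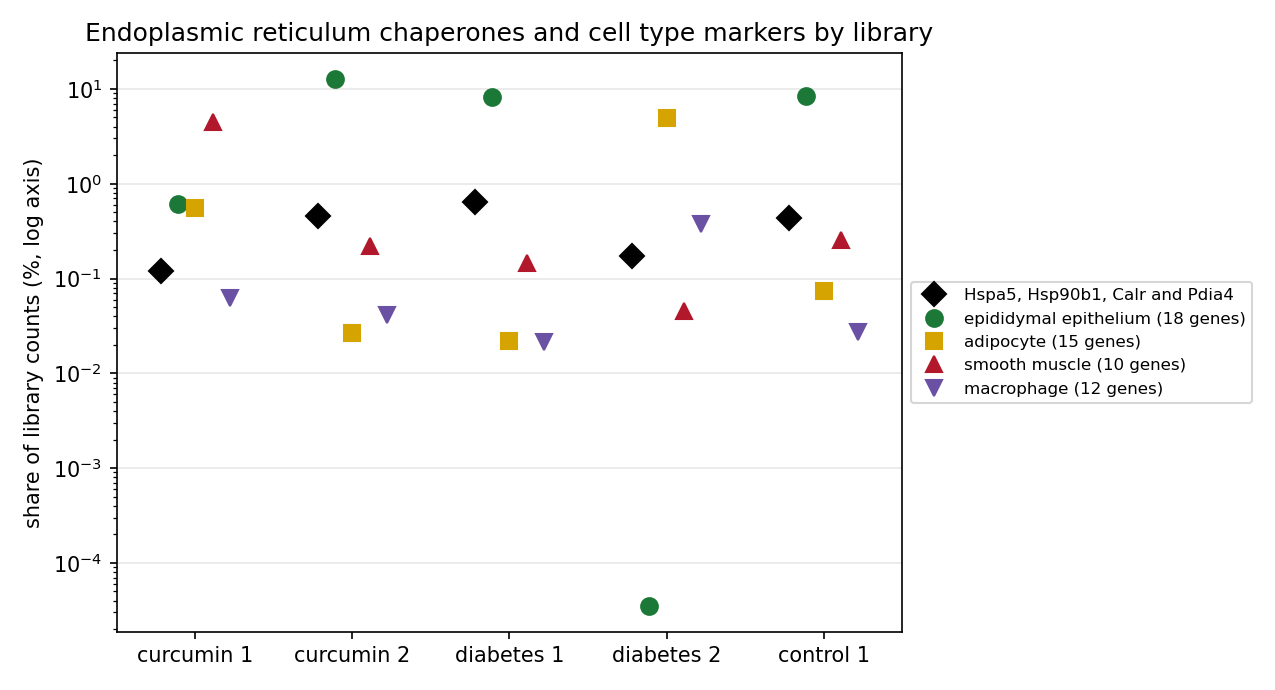
Share of library counts (%, log axis) taken by Hspa5, Hsp90b1, Calr and Pdia4 summed and by 4 marker lists, with 1 symbol per list in each of the 5 libraries. The chaperone share is 0.434% to 0.639% where the epididymal share is 8.19% to 12.6% (curcumin 2, diabetes 1, control 1), and 0.121% and 0.173% in curcumin 1 and diabetes 2.

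Hspa5 encodes BiP, the HSP70 of the ER lumen, which holds the stress sensors inactive. It had 342 CPM in curcumin 1 and 1015 CPM in curcumin 2, against 2032 CPM in diabetes 1 and 657 CPM in diabetes 2, and 1278 CPM in control 1 (95% Wilson interval 1265 to 1292 CPM). The curcumin mean was 679 ± 476 CPM and the diabetes mean 1344 ± 972 CPM (SD, n = 2 each). Both curcumin libraries lay below the control, but the curcumin and diabetes libraries overlapped, since curcumin 2 exceeded diabetes 2. The spread within the diabetes pair, 3.09-fold, was wider than the difference between the group means.

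Hsp90b1 encodes GRP94, the HSP90 of the ER, which folds integrins and Toll-like receptors among other clients. Its level was 261 and 1256 CPM in curcumin 1 and curcumin 2, 1285 and 332 CPM in diabetes 1 and diabetes 2, and 843 CPM in control 1. The group means were close, at 759 ± 704 CPM with curcumin and 808 ± 674 CPM in untreated diabetes (SD, n = 2 each), with one low and one high library in each pair. Relative to Hspa5, counted in the same library and so free of scaling, Hsp90b1 was highest in curcumin 2, at 1.24 counts per Hspa5 count, against 0.763 in curcumin 1, 0.632 and 0.505 in diabetes 1 and diabetes 2, and 0.659 in control 1. On that ratio both curcumin libraries lay above both diabetes libraries and the control.

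Calr encodes calreticulin, the lectin that retains newly made glycoproteins until they fold and that also binds calcium. It stood at 495 and 1861 CPM in curcumin 1 and curcumin 2, 2300.2 and 633 CPM in diabetes 1 and diabetes 2, and 1795 CPM in control 1. Within each pair the higher library exceeded the lower 3.76-fold with curcumin and 3.64-fold in diabetes, so the groups overlapped. The ratio of Calr to Hspa5 counts was 1.44 and 1.83 in the curcumin libraries, 1.13 and 0.963 in the diabetes libraries and 1.40 in the control, again with no overlap between curcumin and diabetes. The ratio of Pdia4 to Hspa5 counts did overlap, at 0.313 and 0.433 with curcumin, 0.379 and 0.159 in diabetes and 0.335 in the control. These ratios are descriptions of 5 libraries, picked after their values were seen and not tested. Such splits were common among the member ratios computed. Hspa5 to Atf4, Hspa5 to Herpud1 and Ddit3 to Atf4 also had no overlap between curcumin and diabetes. The ratios of Hspa5 to Ddit3, Sel1l, Xbp1 and Dnajb9 did overlap. How often pairs of genes outside the members split the groups was not counted.

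Pdia4, also called ERp72, is a thioredoxin-fold enzyme that forms and rearranges disulfide bonds. Of the 10 genes it spanned the widest range, 7.37-fold from the lowest to the highest library. It had 107 and 439.7 CPM in curcumin 1 and curcumin 2, against 771 CPM in diabetes 1 and 105 CPM in diabetes 2, and 429 CPM in control 1. Both ends of the range lay in the diabetes pair, and the lower library of each pair stood at nearly the same level.

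Dnajb9 encodes ERdj4, the co-chaperone that stimulates BiP and keeps IRE1 in check. Its level was 32.1 and 63.1 CPM in curcumin 1 and curcumin 2, 173 and 56.3 CPM in diabetes 1 and diabetes 2, and 86.8 CPM in control 1. Both curcumin libraries lay below the control, while curcumin 2 was above diabetes 2. The count ratio of Hspa5 to Dnajb9 varied less between libraries than its ratio to any other member: the ratio of Hspa5 to Dnajb9 was 10.7 and 16.1 in the curcumin libraries, 11.7 in both diabetes libraries and 14.7 in the control. The ratio of Hspa5 to Herpud1, by comparison, was 1.74 and 7.02 with curcumin, 7.43 and 10.01 in diabetes and 8.69 in the control.

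**Figure D2:**
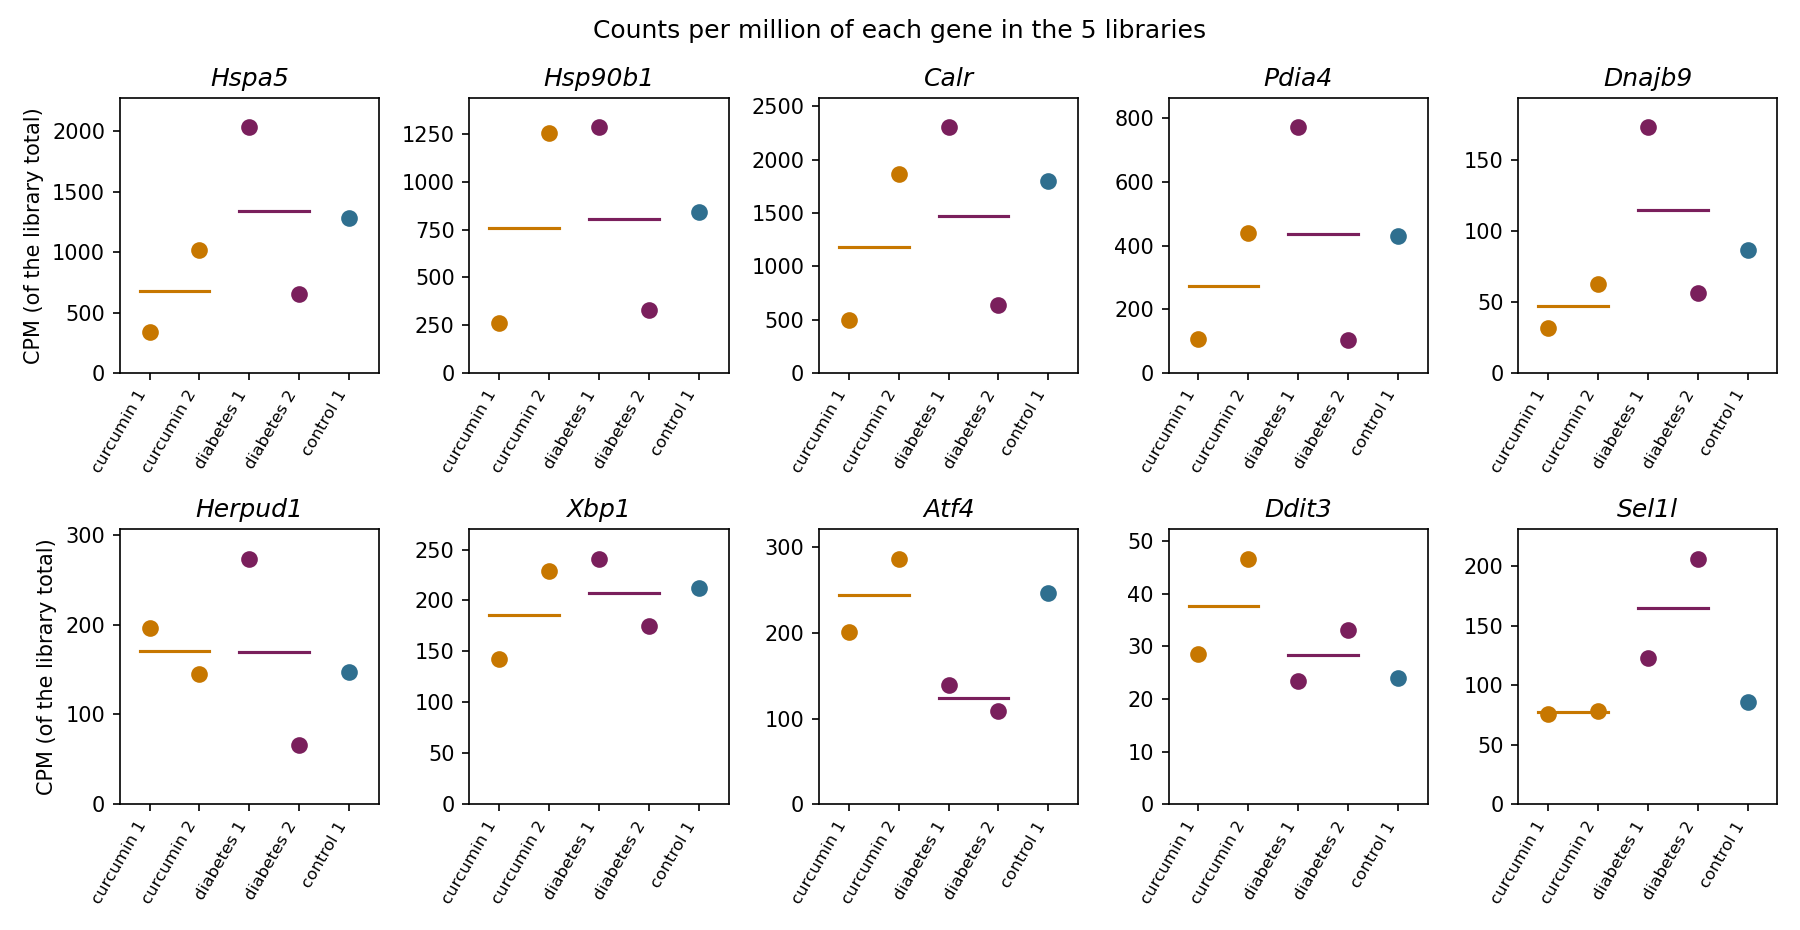
CPM (counts scaled to the library total) of each of the 10 genes (linear axes starting at 0, 1 panel per gene) in the curcumin, diabetes and control libraries, with points for libraries and short lines for group means. For Hspa5, Hsp90b1, Calr, Pdia4, Dnajb9 and Xbp1 the curcumin 2, diabetes 1 and control 1 points all lie above curcumin 1 and diabetes 2, beside 18.4% of all genes tested. The curcumin pair lies above the diabetes pair for Atf4, beside 17.9% of all genes tested, and below it for Sel1l, beside 9.72%.

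Herpud1 and Sel1l belong to the machinery of ER-associated degradation, which moves misfolded proteins to the cytosol for the proteasome. Herpud1 encodes a membrane protein that organises the complex. It had 196 and 145 CPM in curcumin 1 and curcumin 2, 273 and 65.6 CPM in diabetes 1 and diabetes 2, and 147 CPM in control 1. Herpud1 was the one chaperone or degradation gene of the set that was higher in curcumin 1 than in curcumin 2, and both curcumin values lay between those of the diabetes pair.

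Sel1l encodes the adaptor that holds the ubiquitin ligase HRD1 in place. It stood at 76.0 and 78.2 CPM in curcumin 1 and curcumin 2, against 123 and 206 CPM in diabetes 1 and diabetes 2, and 86.0 CPM in control 1. Both diabetes libraries were above all others, and the curcumin pair (77.1 ± 1.56 CPM) did not overlap the diabetes pair (165 ± 58.7 CPM; SD, n = 2 each). Its highest value was in diabetes 2, the library with the lowest epididymal and highest adipocyte share, so Sel1l ran opposite to Pdia4 within the diabetes pair. The count ratio of Hspa5 to Sel1l was 4.51 and 13.0 with curcumin, 16.5 and 3.18 in diabetes and 14.9 in the control.

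Xbp1 encodes the factor that IRE1 activates by splicing, and the counts per gene do not separate its spliced from its unspliced mRNA. It had 142 and 229 CPM in curcumin 1 and curcumin 2, 241 and 175 CPM in diabetes 1 and diabetes 2, and 212 CPM in control 1. Its span of 1.69-fold was the narrowest of the 10 genes. The order of the 5 libraries was that of Hsp90b1 and Calr, on a smaller scale.

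Atf4 encodes the factor of the integrated stress response, whose protein level is set mainly by translation, which RNA counts do not measure. It stood at 201 and 287 CPM in curcumin 1 and curcumin 2, against 139 and 109 CPM in diabetes 1 and diabetes 2, and 246 CPM in control 1 (95% Wilson interval 240.3 to 252 CPM). Both diabetes libraries were below every other library, and the curcumin pair lay on both sides of the control. The means were 244 ± 60.6 CPM with curcumin and 124 ± 21.3 CPM in untreated diabetes (SD, n = 2 each).

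Ddit3 encodes CHOP, a factor of the same arm that is linked to cell death under lasting stress. Its level was 28.5 and 46.7 CPM in curcumin 1 and curcumin 2, 23.5 and 33.2 CPM in diabetes 1 and diabetes 2, and 24.0 CPM in control 1 (95% Wilson interval 22.2 to 25.9 CPM). Curcumin libraries both exceeded the control, but diabetes 2 was above curcumin 1. The number of Hspa5 counts per Ddit3 count was 12.0 and 21.7 with curcumin, 86.6 and 19.8 in diabetes and 53.3 in the control. The number of Ddit3 counts per Atf4 count was 0.142 and 0.163 with curcumin, 0.168 and 0.304 in diabetes and 0.0974 in the control. Both diabetes libraries thus lay above the others, diabetes 1 by a small margin. Atf4 alone already had both diabetes libraries lowest, whereas Ddit3 overlapped between the groups. These ratios too were picked after their values were seen and were not tested, and several other member ratios split curcumin from diabetes.

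The comparison of curcumin with untreated diabetes asked whether the treatment moved these genes. None of the 10 passed edgeR's quasi-likelihood test at an adjusted p of 0.05, and neither did any of the 29855 genes tested (0%). At an unadjusted p under 0.05, 700 genes and 0 members were counted by edgeR. DESeq2 called 93 genes and limma-voom 0, and neither called a member. Atf4 was higher with curcumin by a log2 fold change of 1.00 (SE 0.53) and Sel1l differed by -1.13 (SE 0.54), both with an adjusted p of 0.852 from edgeR. Dnajb9 differed by -1.19 (SE 0.71) and Hspa5 by -0.89 (SE 0.95), again short of the threshold. For Hsp90b1, Calr, Pdia4, Herpud1, Xbp1 and Ddit3 the log2 fold change ran from -0.54 to 0.41, each smaller than its own SE. In the order of the libraries, both curcumin values were above both diabetes values for 1 member, Atf4, beside 17.9% of all genes tested, and below them for 1 member, Sel1l, beside 9.72%. The shares of members, 1 of 10 in each direction, were near or under that background. By sign, 4 members were positive and 6 negative, with a median log2 fold change of -0.17 beside 0.05 over all genes tested.

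Leaving out single libraries moved most of these values widely. For Pdia4 the log2 fold change of curcumin over diabetes was 1.35 without diabetes 1 and -2.08 without curcumin 2. Hspa5 ran from -2.05 without curcumin 2 to -0.0033 without diabetes 1, and Dnajb9 from -1.92 to -0.31 between the same fits. Calr ran from -1.64 to 0.85 and Hsp90b1 from -1.70 to 1.16, again without curcumin 2 and without diabetes 1. For these genes curcumin 2 and diabetes 1 were the higher libraries of their pairs, which alone sets the direction of these moves. Both libraries were rich in epididymal genes, and the part of that content was not tested. Atf4 remained positive, between 0.57 and 1.31, and Sel1l remained negative, between -1.52 and -0.58, with adjusted p-values from 0.573 to 1 for Atf4 and from 0.528 to 1 for Sel1l over the 15 alternative edgeR, DESeq2 and limma-voom settings. In those fits the single library left in a pair borrowed its spread from the remaining pair.

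**Figure D3:**
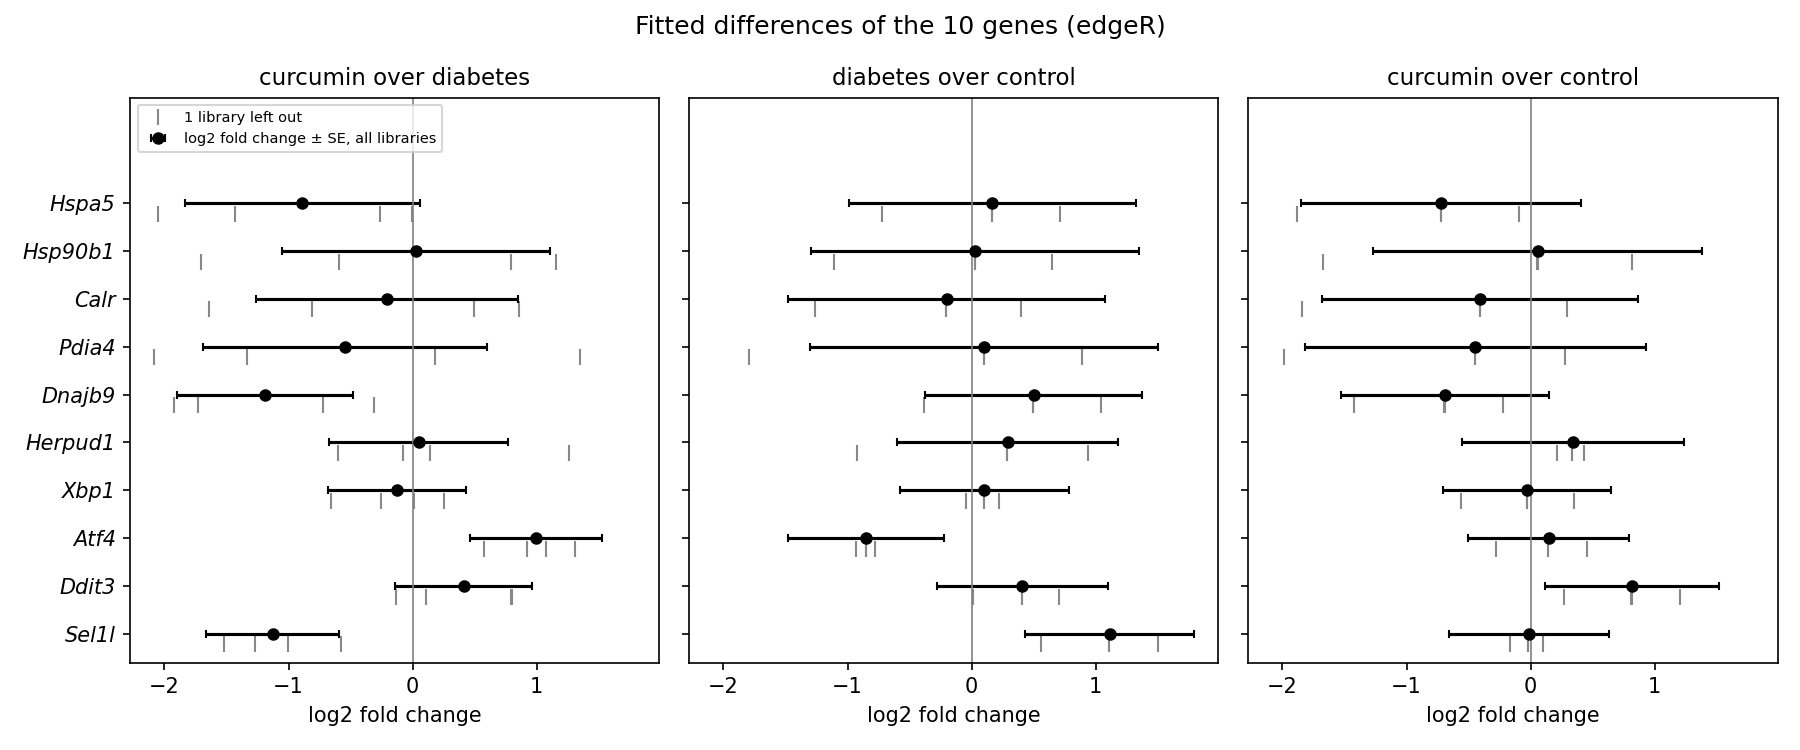
Fitted log2 fold changes of the 10 genes (points, bars ± SE, edgeR) for curcumin over diabetes, diabetes over control and curcumin over control, with grey ticks for the value after leaving out each of the 4 replicated libraries. For curcumin over diabetes the ticks of Atf4 (0.57 to 1.31) and Sel1l (-1.52 to -0.58) stay on one side of 0, while those of Pdia4 run from -2.08 to 1.35.

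In diabetes against control, 0 of the 29855 genes (0%) and 0 members passed edgeR's adjusted p of 0.05. An unadjusted p under 0.05 was reached by 441 genes and 0 members, and DESeq2 called 55 genes and limma-voom 0, with 0 members in each. Sel1l was higher in diabetes, with a log2 fold change of 1.11 (SE 0.68), and Atf4 differed by -0.85 (SE 0.63), both with an adjusted p of 1 from edgeR. Those values share the diabetes libraries with the comparison before, so that opposite signs there are not independent. The other 8 members lay between -0.20 and 0.50, and 7 of them took the opposite sign in a fit with 1 diabetes library left out: Pdia4, for instance, was at -1.80 without diabetes 1 and 0.89 without diabetes 2. Sel1l was at 1.501 without diabetes 1 and 0.56 without diabetes 2, and Atf4 between -0.93 and -0.78 in the 4 fits with a library left out. Both diabetes values exceeded the control for 1 member, Sel1l, beside 17.3% of all genes tested, and were below it for 1 member, Atf4, beside 34.5%. Of the 10 members 8 were positive and 2 negative, with a median of 0.13 beside 0.07 over all genes tested.

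In curcumin against control, 0 of the 29855 genes (0%) and 0 members passed edgeR's test. An unadjusted p under 0.05 was counted for 113 genes and 0 members, while DESeq2 called 71 genes and limma-voom 0, with 0 members in each. The median log2 fold change over all genes tested was 0.17 here, and 0.03 when scaled by library total alone. Ddit3 had a log2 fold change of 0.82 (SE 0.70), Hspa5 of -0.72 (SE 1.13) and Dnajb9 of -0.69 (SE 0.84), with an adjusted p of 1 from edgeR for each. Without curcumin 1, Ddit3 was at 1.20, Hspa5 at -0.095 and Dnajb9 at -0.22. Without curcumin 2, Ddit3 was at 0.27, Hspa5 at -1.89 and Dnajb9 at -1.42. Both curcumin values were above the control for 1 member, Ddit3, beside 24.6% of all genes tested, and below it for 3 members, Hspa5, Dnajb9 and Sel1l, beside 34.0%. By sign, 4 members were positive and 6 negative, with a median of -0.020.

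The arrangement that recurred among the members followed the libraries and not the groups. Curcumin 2, diabetes 1 and control 1 all lay above curcumin 1 and diabetes 2 for 6 of the 10 members (Hspa5, Hsp90b1, Calr, Pdia4, Dnajb9 and Xbp1), beside 18.4% of all genes tested. The opposite arrangement was seen for 0 members, beside 19.2% of all genes tested. The 3 higher libraries are those with epididymal shares of 8.19% to 12.6%. The arrangement was looked for after library composition was known, and it cuts across treatment, so it is given as a description with no test.

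Across 9 other lists of the same pathway and its surroundings (131 genes), 0 genes passed edgeR's adjusted p of 0.05 in any of the 3 comparisons. The unadjusted edgeR p was under 0.05 for Edem3 and Psat1 only, both in curcumin against diabetes. In that comparison 700 of all 29855 genes tested reached it. Lists of ER-resident proteins were often arranged like the members. The arrangement with curcumin 2, diabetes 1 and control 1 highest was seen for 10 of 15 tested further ER chaperones, 9 of 12 disulfide enzymes, 4 of 6 stress sensors and processing proteases, 15 of 20 translocon and glycosylation genes and 8 of 14 ER-to-Golgi transport genes. It was seen for 7 of 21 degradation genes, 7 of 24 ATF4 targets, 1 of 5 CREB3-family factors and 1 of 12 cytosolic heat shock genes. Over all genes tested its share was 18.4%, and that of the opposite order 19.2%. The opposite order was seen for 4 degradation genes, 4 ATF4 targets, 1 CREB3-family factor and 2 cytosolic heat shock genes. It was also seen for 1 disulfide enzyme and 1 transport gene, and for 0 genes of the other lists. The lists thus differed in how many genes were so arranged, with the cytosolic chaperones at the low end, but the difference between lists was not tested. The median log2 fold changes of the 9 lists ran from -0.41 (sensors) to 0.18 (cytosolic heat shock) in curcumin against diabetes. In diabetes against control they ran from -0.11 (ATF4 targets) to 0.25 (CREB3 family), and in curcumin against control from -0.58 (CREB3 family) to 0.63 (cytosolic heat shock).

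**Figure D4:**
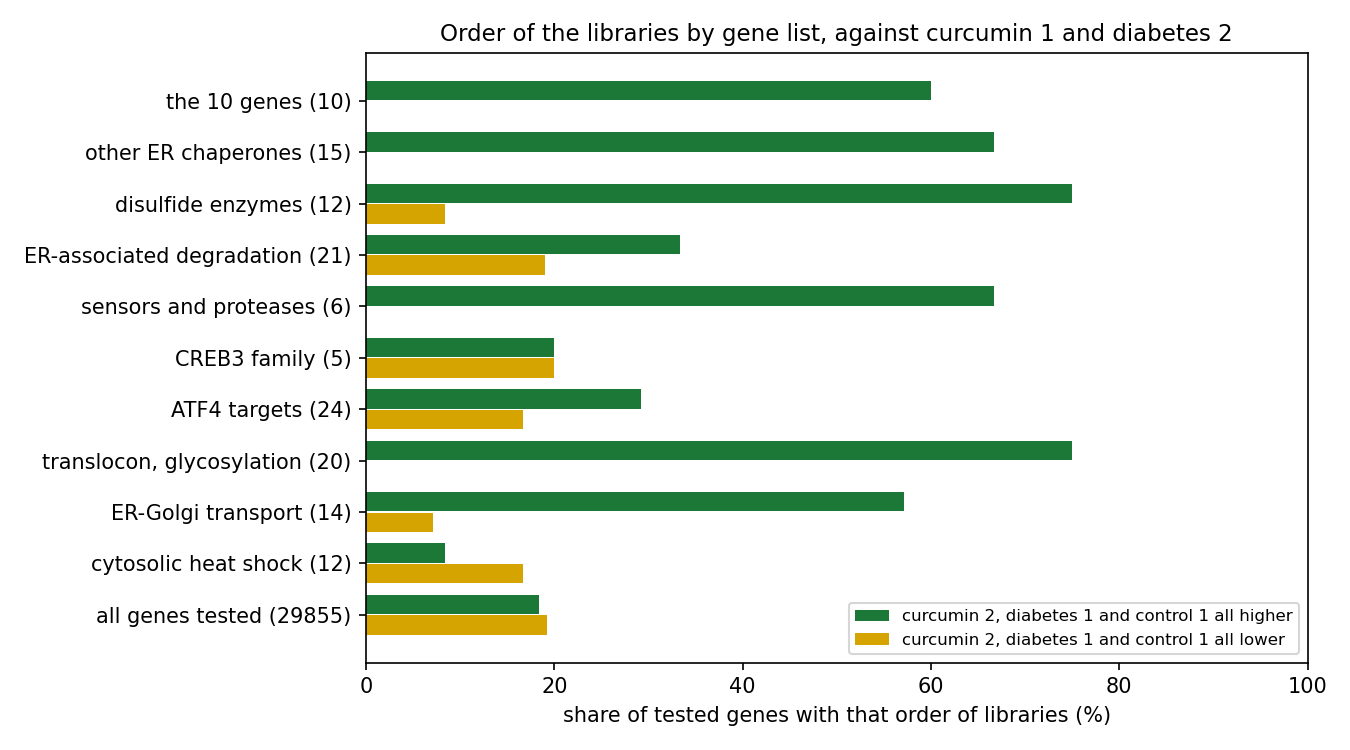
Share of tested genes (%) in each pathway list (number tested in brackets) for which curcumin 2, diabetes 1 and control 1 all lay above, or all below, curcumin 1 and diabetes 2, with all genes tested at the bottom. The share above is 18.4% over all genes tested, while 10 of 15 further ER chaperones, 15 of 20 translocon and glycosylation genes and 1 of 12 cytosolic heat shock genes have that order, and a bar of 0 is not drawn.

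Among the further ER chaperones, 7 had a positive and 8 a negative log2 fold change in curcumin against diabetes, with a median of -0.11 beside 0.05 for all genes tested. Both curcumin libraries were above both diabetes libraries for 1 of the 15 and below them for 2, beside 17.9% and 9.72% of all genes tested. Dnajc1, a J-domain partner of BiP, was one of those below, with 38.1 and 42.0 CPM with curcumin, 63.2 and 56.7 CPM in diabetes and 43.5 CPM in the control. Hspa13, an HSP70 of the ER, had 22.3 and 45.4 CPM with curcumin, against 92.9 and 42.6 CPM in diabetes, and 41.3 CPM in the control. Dnajc3, which encodes the PERK inhibitor p58IPK, stood at 59.2 and 246 CPM with curcumin, 428 and 166 CPM in diabetes and 277 CPM in the control. Canx, the membrane-bound partner of calreticulin, had 424 and 419.6 CPM with curcumin, 925 and 266 CPM in diabetes and 443 CPM in the control. For Hspa13, Dnajc3 and Canx the curcumin and diabetes values overlapped.

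Among the sensors, 1 of 6 was positive in curcumin against diabetes, with a median of -0.41, and both curcumin libraries were below both diabetes libraries for 2 and above them for 0, beside 9.72% and 17.9% of all genes tested. Ern1, the IRE1 gene, stood at 30.8 and 59.1 CPM with curcumin, 140.2 and 22.9 CPM in diabetes and 101 CPM in the control, so that curcumin 2, diabetes 1 and control 1 again lay above curcumin 1 and diabetes 2. Atf6 had 42.7 and 50.1 CPM with curcumin, against 61.7 and 68.5 CPM in diabetes, and 46.8 CPM in the control. Its 2 diabetes values were above the other 3, as for Sel1l, and its log2 fold change for curcumin against diabetes was -0.49 (SE 0.45). How many of all genes tested had both diabetes libraries highest was not counted.

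In the degradation list, 9 genes were positive and 12 negative in curcumin against diabetes, with a median of -0.23. Edem3, which trims mannose from misfolded glycoproteins, had 19.6 and 23.3 CPM with curcumin, against 45.1 and 58.9 CPM in diabetes, and 33.6 CPM in the control. Its log2 fold change was -1.29 (SE 0.49), short of the adjusted threshold. Edem1, a relative of Edem3, stood at 50.1 and 52.7 CPM with curcumin, 64.9 and 208 CPM in diabetes and 41.2 CPM in the control. In the order of libraries, 6 of the 21 genes were below both diabetes libraries with curcumin and 1 was above, beside 9.72% and 17.9% of all genes tested. Derl3, a channel component of this pathway named after its values were seen, was also higher in curcumin 2, diabetes 1 and control 1 than in the other libraries, though highest in curcumin 2 where the chaperone members were highest in diabetes 1. It had 1.76 and 249.9 CPM with curcumin, 132 and 0.630 CPM in diabetes and 141 CPM in the control.

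Among the ATF4 targets, 8 of 24 were positive and 16 negative in curcumin against diabetes, with a median of -0.29, beside 51.7% positive among all genes tested. Both curcumin libraries were above both diabetes libraries for 1 target and below them for 5, beside 17.9% and 9.72% of all genes tested. Both diabetes libraries, in turn, were below the control for 9 of the 24, beside 34.5%. Psat1, of serine synthesis, had 58.0 and 37.9 CPM with curcumin, against 133 and 267 CPM in diabetes, and 110.4 CPM in the control, a log2 fold change of -2.12 (SE 0.61) for curcumin against diabetes. Asns, which makes asparagine, stood at 18.1 and 14.9 CPM with curcumin, 31.8 and 33.1 CPM in diabetes and 17.8 CPM in the control. For both genes the curcumin pair lay below the diabetes pair, as it did for Chac1, Sesn2 and Ddit4, which were named after their values were seen. Ppp1r15a, which encodes the phosphatase subunit GADD34, was the target with the curcumin pair above the diabetes pair, at 62.4 and 34.6 CPM against 23.5 and 21.0 CPM, with 27.7 CPM in the control. Atf3, a stress-induced factor, was high in diabetes 2: it had 18.3 and 6.69 CPM with curcumin, 9.43 and 102 CPM in diabetes and 2.81 CPM in the control. Slc7a5, an amino acid transporter named after its values were seen, stood at 31.1 and 782 CPM with curcumin, 1116 and 13.3 CPM in diabetes and 1114 CPM in the control.

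Cytosolic heat shock genes, many of which answer to HSF1, were highest in different libraries from gene to gene. Both curcumin libraries were above both diabetes libraries for 3 of the 12 and below them for 2, beside 17.9% and 9.72% of all genes tested. Bag3, a co-chaperone of HSP70, had 413 and 78.1 CPM with curcumin, against 71.7 and 48.1 CPM in diabetes, and 108 CPM in the control. Hspa1a, an inducible HSP70, had 91.2 and 26.9 CPM with curcumin, 32.8 and 4.33 CPM in diabetes and 28.5 CPM in the control. Both peaked in curcumin 1, the library with the highest smooth muscle share, and their near-identical copies may share reads in the case of Hspa1a and Hspa1b. Hspa8, the constitutive HSP70, stood at 295 and 220.1 CPM with curcumin, 425 and 514 CPM in diabetes and 209.9 CPM in the control, with both diabetes libraries highest. Hsp90ab1, which held the most counts of the list in every library and was named for that, stood at 1375 and 1119 CPM with curcumin, 1728 and 942 CPM in diabetes and 1334 CPM in the control. It was highest in diabetes 1, as were Hspa5, Hsp90b1, Calr and Pdia4. Unlike those genes, Hsp90ab1 was higher in curcumin 1 than in curcumin 2 and control 1.

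Genes whose promoter windows hold the same elements as the members were also read. Among 26 tested genes with an ERSE, 23 were not members, and 10 of these had the order with curcumin 2, diabetes 1 and control 1 highest, beside 18.4% of all genes tested. They included Pdia6, Creld2, Syvn1, Dnajc3, Ero1b and Derl3, which the pathway lists hold too. Pdia6, another disulfide enzyme, stood at 205 and 831 CPM with curcumin, 911 and 235 CPM in diabetes and 703 CPM in the control. Canx holds an ERSE as well and did not have that order. With ERSE-II, 5 of 9 tested genes outside the set had it, among them Dnajb11 and Krtcap2, while Herpud1 did not. The presence of an element in a window is a description and not evidence of binding.

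The genes with profiles most like the mean profile of the 10 members were found among 10833 named genes of at least 10 CPM on average, by the root mean square difference of log2(CPM + 1) centred over the 5 libraries. They were Dcbld1 (0.05), Sort1 (0.07), 5530601H04Rik (0.08), Srpr (0.09) and Enoph1 (0.09). Srpr, the receptor of the signal recognition particle at the ER, had 113 and 229.8 CPM with curcumin, 291 and 110.1 CPM in diabetes and 211 CPM in the control. Of the members, Xbp1 lay nearest to their mean profile, at 0.25, and Sel1l farthest, at 0.80.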

How the data were processed

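The 5 libraries were poly-A selected with a stranded kit and sequenced from both fragment ends, according to the labels. What the authors deposited is one table of raw whole-number counts, with 78334 Ensembl genes as rows. FastQC, featureCounts and the build GRCm39 are named in the submitters' processing notes. Aligner, annotation release and the counter's strand setting were not given in the sources used, so reads from antisense overlaps may sit in the wrong gene. Gene IDs gave a symbol for 51486 genes (65.7%). Of 223 genes in the members, 9 pathway lists and 7 marker lists, 222 were found, 5 of them by another symbol. Ddit3 has a second ID with 0 counts, which was not used.

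CPM was taken from the library total. For tests, genes were kept by filterByExpr and scaled by TMM, and all 5 libraries entered a single model of group means (2 residual degrees of freedom) with edgeR 4.0.16's robust quasi-likelihood test in R 4.3.3, two-sided, with Benjamini-Hochberg adjustment over 29855 genes and a threshold of 0.05. The spread of the single control library was taken from the replicated groups, and the biological coefficient of variation was 1.07. SE is the log2 fold change over the square root of F. The test was checked on simulated counts with known changes, but recovery was required only at a spread far below that of these libraries. Recovery was also recorded at larger spreads, but none was required there and the values are not given here. Which changes could be found at a biological coefficient of variation of 1.07 is therefore not stated. Alternatives were other scalings and low-count filters, DESeq2 1.42.0, limma-voom (limma 3.58.1), a replicate block and leaving out each replicated library. Removal of genes over 1% of a library, the older quasi-likelihood method and a crossed pairing were chosen after seeing the data.

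The members and lists were chosen with earlier results of these data known. From each list up to 3 genes were picked by smallest unadjusted edgeR p in curcumin against diabetes and up to 3 in diabetes against control. Besides the members, the text names a selection of these and the 5 genes most like the members. None of those picked from the disulfide enzyme, CREB3-family, translocon and ER-to-Golgi lists is named. Pdia6 and others named for their promoter or order were chosen after their values were seen. Each member had at least 597 counts per library, and 95% Wilson intervals had half-widths of 0.697% to 8.03% of the member's CPM. They cover counting error only. The reads carry no molecular identifiers, so copies of the same molecule may be counted apart and the intervals may be too narrow. Promoters came from RefSeq on GRCm38.p6, matched by symbol for all 10 members. No coordinates of the count table were used.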

Additional observations from a re-analysis of the deposited data

How the results depend on the processing

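No member was called in any of the 3 comparisons under any of the 15 alternatives. The number of genes called was 0 in each comparison under 14 of them, including leave-one-out fits, while DESeq2 called 93 in curcumin against diabetes (90 higher, 3 lower), 55 in diabetes against control (48 higher, 7 lower) and 71 in curcumin against control (71 higher, 0 lower). With the replicate block edgeR called 0, 0 and 0 genes, with 217, 47 and 75 at an unadjusted p under 0.05; the labels give no sign that numbers pair the libraries, and deviations of same-numbered libraries correlated at -0.41 across genes. Crossing the pairing, an alternative chosen after seeing the data, called 0, 0 and 0 genes (699, 204 and 195 at an unadjusted p under 0.05). With TMM-scaled CPM, both diabetes libraries exceeded the control for 2 members (Ddit3 was added) and both curcumin libraries for 2 (Herpud1 was added); Sel1l no longer lay below the control in both curcumin libraries.

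With 1 library left out, the log2 fold changes that turned their sign in curcumin against diabetes ranged -1.70 to 1.16 for Hsp90b1, -1.64 to 0.85 for Calr, -2.08 to 1.35 for Pdia4, -0.60 to 1.26 for Herpud1, -0.66 to 0.25 for Xbp1 and -0.14 to 0.80 for Ddit3. In diabetes against control such ranges were -0.72 to 0.71 for Hspa5, -1.11 to 0.65 for Hsp90b1, -1.27 to 0.40 for Calr, -1.80 to 0.89 for Pdia4, -0.39 to 1.04 for Dnajb9, -0.93 to 0.94 for Herpud1 and -0.044 to 0.22 for Xbp1. In curcumin against control they were -1.68 to 0.81 for Hsp90b1, -1.85 to 0.29 for Calr, -1.98 to 0.28 for Pdia4, -0.56 to 0.35 for Xbp1, -0.28 to 0.46 for Atf4 and -0.16 to 0.10 for Sel1l. DESeq2 size factors turned the sign to -0.026 for Hsp90b1 and -0.016 for Herpud1 in curcumin against diabetes. Scaling by library total turned the sign to -0.090 for Hsp90b1 in curcumin against diabetes, and -0.060 for Hsp90b1 and -0.032 for Xbp1 in diabetes against control, and -0.15 for Hsp90b1 and -0.014 for Atf4 in curcumin against control. Removing epididymis and sperm markers turned the sign to 0.014 for Sel1l in curcumin against control. Dropping the low-count filter turned the sign to 0.0017 for Xbp1 and 0.022 for Sel1l in curcumin against control. The stricter filter (CPM of at least 1 in 2 libraries) turned the sign to -0.034 for Hsp90b1 and -0.034 for Herpud1 in curcumin against diabetes. The DESeq2 test turned the sign to -0.026 for Hsp90b1 and -0.016 for Herpud1 in curcumin against diabetes. Limma-voom turned the sign to -0.18 for Hsp90b1 in curcumin against diabetes, and -0.21 for Hsp90b1 and -0.43 for Pdia4 in diabetes against control, and -0.40 for Hsp90b1 in curcumin against control. The replicate block turned the sign to -0.20 for Hsp90b1 in curcumin against diabetes, and -0.048 for Hsp90b1, -0.035 for Xbp1 and -0.041 for Ddit3 in diabetes against control, and -0.24 for Hsp90b1 and -0.026 for Atf4 in curcumin against control. The crossed block turned the sign to -0.20 for Hsp90b1 in curcumin against diabetes, and 0.52 for Calr in diabetes against control, and 0.18 for Calr, 0.39 for Pdia4 and 0.20 for Xbp1 in curcumin against control. The cause of these changes was not tested. With 2, 2 and 1 libraries and a biological coefficient of variation of 1.07, the spread between libraries set the precision of the fold changes; depth set a far narrower limit, since each member had at least 597 counts in every library. With TMM-scaled CPM, 11 of 30 member means by group moved. All 10 control values left their 95% Wilson interval, which covers counting error only. They share the TMM factor of control 1, 1.08, so these moves are a single scaling and not separate results. The means of the replicated groups were set against their SD instead, and only the curcumin mean of Sel1l moved by more, to 78.8 CPM.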
